A study of Capra hircus with 6 samples.

Results

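Among 27947 mRNA transcripts measured in fetal goat skin, 20 (0.0716%) were at least 2 times higher in dark skin than in white skin by a simple rule on library values. The lowest FPKM (fragments per kilobase of transcript, scaled to the size of the library) of the 3 dark skin libraries had to be at least 1 and at least 2 times the highest FPKM of the 3 white skin libraries. DCT, a pigment enzyme gene that also met the rule, was left out. The transcripts were thus chosen by their FPKM in all 6 libraries. The rule uses the contrast between dark and white skin, so the differences below describe how the transcripts were chosen. The 20 also entered a fit over mRNA transcripts given below, but a call there is no separate evidence for them. In the opposite direction, 27 transcripts (0.0966%) met the same rule.

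The libraries came from Capra hircus fetuses at day 100 of gestation. Dark skin was that of the Youzhou dark-skin goat, labelled hyperpigmented (replicates 1, 2 and 3), and white skin that of the Yudong white goat, labelled normal (replicates 4, 5 and 6). No treatment or genetic change was applied, the study's methods name 3 pregnant ewes of each breed, and both dorsal and ventral skin was taken, without the site of each library being given. Each colour was represented by 1 breed, so skin colour and breed cannot be told apart. In whole skin, fewer cells of a type and less RNA per cell cannot be told apart either.

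Skin colour depends on melanocytes, which make melanin in melanosomes through TYR, TYRP1 and DCT under the control of the transcription factor MITF, and pass it to keratinocytes. Skin also holds dermal fibroblasts that lay down matrix, vessels, nerves, immune cells, fat and a muscle layer, and a difference between whole skin samples can come from any of them. Transcripts of 1 gene that differ in their exons share reads, and an estimate for a single transcript divides these shared reads by a statistical model.

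The summed FPKM of all mRNA transcripts ranged from 506548 to 585344 per library, and the steps between low values put the depth of the libraries between 0.988 and 1.19 times that of dark skin replicate 1. The number of reads behind a single value is unknown. A value of 0 needs care in these tables: the matched transcripts of COL1A2 and COL3A1, which encode abundant collagens of skin, were listed at 0 in all 6 libraries. KRT14, a keratin of basal keratinocytes, had 199.8 to 462 FPKM in dark skin and 315 to 393 FPKM in white skin.

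Of the 20 transcripts, 6 could be matched to a gene symbol by their RefSeq accession, and 14 could not. The 6 were transcripts of FN1, HSPA6, RGS1, FAM49B, PHOSPHO2 and PBLD. By the rule's minimum, all 20 had to pass the filter of at least 0.1 FPKM on the mean of the 6 libraries. They were transcripts of modest level, with a mean in dark skin between 1.52 and 14.1 FPKM and a median of 3.86 FPKM. The median over the 15233 transcripts with at least 1 FPKM in every dark skin library was 9.57 FPKM.

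**Figure D1:**
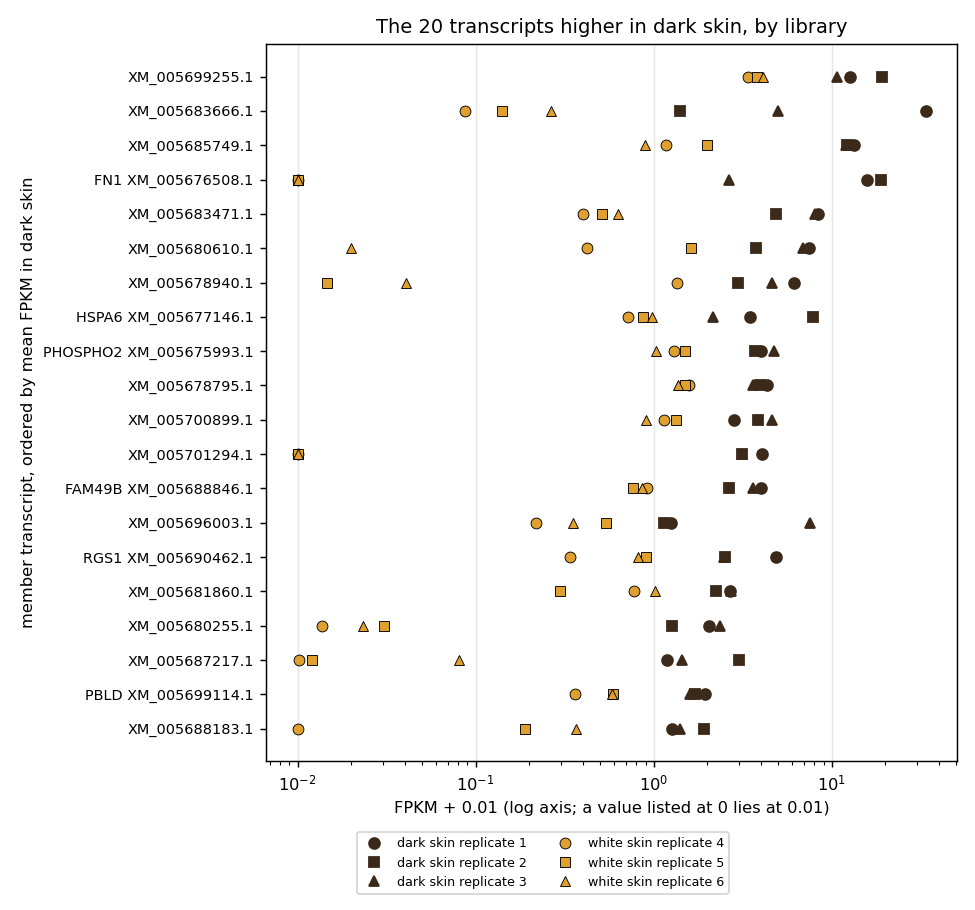
Each row is 1 of the 20 transcripts and each point its FPKM plus 0.01 in 1 library, on a log axis, with dark points for dark skin replicates 1 to 3 and light points for white skin replicates 4 to 6. By the rule no row overlaps between the breeds, and FN1 and XM_005701294.1 have all 3 white skin libraries at 0.

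FN1 encodes fibronectin, a secreted glycoprotein that links cells to the extracellular matrix. Its matched transcript (XM_005676508.1) had 15.8, 18.9 and 2.65 FPKM in dark skin replicates 1, 2 and 3 and was listed at 0 in white skin replicates 4, 5 and 6. Dark skin replicate 3 lay well below the other two dark skin libraries. This was the only transcript that could be matched to FN1, and the unmatched transcripts could include further FN1 transcripts, so the total FN1 level was not analysed here and these values of 0 do not show that FN1 was absent from white skin. XM_005701294.1, which has no symbol here, was the other transcript listed at 0 in all 3 white skin libraries. It had 4.06, 3.14 and 3.14 FPKM in dark skin, and its dark skin values lay much closer together than those of FN1. No fold is given for either transcript. In the opposite direction, 2 transcripts with at least 1 FPKM in every white skin library were listed at 0 in all dark skin libraries.

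HSPA6 encodes an inducible member of the HSP70 family of heat shock chaperones. Its transcript (XM_005677146.1) had 3.49, 7.89 and 2.14 FPKM in dark skin and 0.704, 0.858 and 0.966 FPKM in white skin. The white skin libraries lay within a narrow range, whereas dark skin replicate 2 stood above the other two dark skin libraries. The means were 4.51 ± 3.01 (SD, n = 3) and 0.843 ± 0.132 (SD, n = 3) FPKM, a ratio of 5.35. HSPA6 is closely similar to other HSP70 genes, so shared reads make its level uncertain. With the libraries scaled to the same summed FPKM it no longer met the rule, and it was among the 3 transcripts nearest to the factor of 2.

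Other stress genes were read beside HSPA6 from a list of early response and stress genes, of which 7 of 23 were matched, with 1 transcript each. None was among the 20 transcripts, and 2 of the 7 were higher in dark skin without overlap between the breeds. Over all mRNA transcripts 6.60% were higher and 6.50% lower without overlap. DNAJB1, a co-chaperone of HSP70, had 44.8, 49.9 and 48.3 FPKM in dark skin and 35.9, 36.8 and 40.1 FPKM in white skin. FOS, an immediate early transcription factor gene, had 64.3, 42.1 and 13.1 FPKM in dark skin and 10.8, 6.25 and 5.86 FPKM in white skin. The dark skin libraries differed widely in FOS and lay close together in DNAJB1. HSPA8, the constitutive HSP70 gene, had 340 to 523 FPKM in dark skin and 438 to 560 FPKM in white skin, and the breeds overlapped. The summed level of the list was 543 to 770 FPKM in dark skin and 558 to 713 FPKM in white skin, and the part of handling or stress in these values was not tested.

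RGS1 encodes a regulator of G protein signalling, which speeds the return of G proteins to the inactive state and is best known from lymphocytes. Its transcript (XM_005690462.1) had 4.827, 2.4997 and 2.477 FPKM in dark skin and 0.330, 0.899 and 0.808 FPKM in white skin. Dark skin replicate 1 was the highest library and white skin replicate 4 the lowest. The means were 3.27 ± 1.35 (SD, n = 3) and 0.679 ± 0.306 (SD, n = 3) FPKM, a ratio of 4.81. Of the immune cell list, 20 of 26 genes were matched, and their summed level was 80.1 to 90.8 FPKM in dark skin, within the 68.2 to 99.8 FPKM of white skin. Among these genes CD4 had under 0.1 FPKM in every library. Of the 26 transcripts of this list, 1 was higher and 1 lower in dark skin without overlap. Neither count is above the share over all mRNA transcripts, 6.60% higher and 6.50% lower. The one that was higher, TYROBP, an adaptor of myeloid and natural killer cell receptors, had 16.23 to 22.2 FPKM in dark skin and 14.97 to 16.17 FPKM in white skin. The one that was lower, CD3D, a chain of the T cell receptor complex, had 0.184, 0.139 and 0.102 FPKM in dark skin and 0.197, 0.230 and 0.341 FPKM in white skin.

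The related genes RGS2 and RGS18, which are located close to RGS1 in the goat assembly ARS1.2, did not separate the breeds. RGS2 had 13.8, 14.5 and 24.2 FPKM in dark skin and 13.8, 21.1 and 9.70 FPKM in white skin. RGS18 had 0.315 to 0.378 FPKM in dark skin and 0.331 to 0.369 FPKM in white skin, and RGS21 was listed at 0 in all libraries.

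FAM49B, PBLD and PHOSPHO2 had other matched transcripts besides the one that met the rule, so each could be read as a single transcript and as the sum of its matched transcripts. FAM49B, also called CYRIB, binds active RAC1 and restrains actin remodelling. Its transcript XM_005688846.1 had 3.99, 2.64 and 3.59 FPKM in dark skin and 0.905, 0.758 and 0.846 FPKM in white skin. The means were 3.41 ± 0.694 (SD, n = 3) and 0.836 ± 0.0740 (SD, n = 3) FPKM, a ratio of 4.07. The most abundant of the 4 matched transcripts, XM_005688843.1, had 10.53 ± 0.298 (SD, n = 3) FPKM in dark skin and 9.75 ± 0.855 (SD, n = 3) FPKM in white skin, and its values overlapped. The sum of the 4 transcripts was 16.2, 17.6 and 16.7 FPKM in dark skin and 13.1, 13.1 and 13.7 FPKM in white skin, a ratio of means of 1.26. The transcript that met the rule made up 20.2% of this sum in dark skin and 6.28% in white skin.

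PHOSPHO2 encodes a phosphatase of the haloacid dehalogenase family. Its transcript XM_005675993.1 had 3.98, 3.71 and 4.73 FPKM in dark skin and 1.294, 1.496 and 1.020 FPKM in white skin. The means were 4.14 ± 0.529 (SD, n = 3) and 1.27 ± 0.239 (SD, n = 3) FPKM, a ratio of 3.26. A second transcript, XM_005675991.1, lay the other way, with 3.85, 3.08 and 3.07 FPKM in dark skin and 4.05, 5.78 and 6.32 FPKM in white skin. The third and most abundant, XM_005675990.1, had nearly the same mean in both breeds, 11.7 ± 4.02 (SD, n = 3) and 11.7 ± 2.51 (SD, n = 3) FPKM. The sum of the 3 transcripts was 24.2, 16.0 and 17.4 FPKM in dark skin and 14.8, 21.7 and 18.5 FPKM in white skin, so the breeds overlapped and the ratio of means was 1.05. The share of the transcript that met the rule was 21.6% of the sum in dark skin and 6.92% in white skin.

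PBLD encodes a protein with a phenazine biosynthesis-like domain. Its transcript XM_005699114.1 had 1.93, 1.70 and 1.59 FPKM in dark skin and 0.351, 0.583 and 0.576 FPKM in white skin. The means were 1.74 ± 0.173 (SD, n = 3) and 0.503 ± 0.132 (SD, n = 3) FPKM, a ratio of 3.45. The other matched transcript, XM_005699113.1, was also higher in dark skin without overlap, with 1.62, 1.57 and 1.29 FPKM against 0.382, 0.979 and 1.04 FPKM. The sum was 3.55, 3.27 and 2.88 FPKM in dark skin and 0.733, 1.56 and 1.62 FPKM in white skin, a ratio of means of 2.48. Both transcripts of PBLD thus lay in the same direction, unlike those of PHOSPHO2, but with the lowest dark skin sum at 1.78 times the highest white skin sum the gene did not meet the factor of 2.

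**Figure D2:**
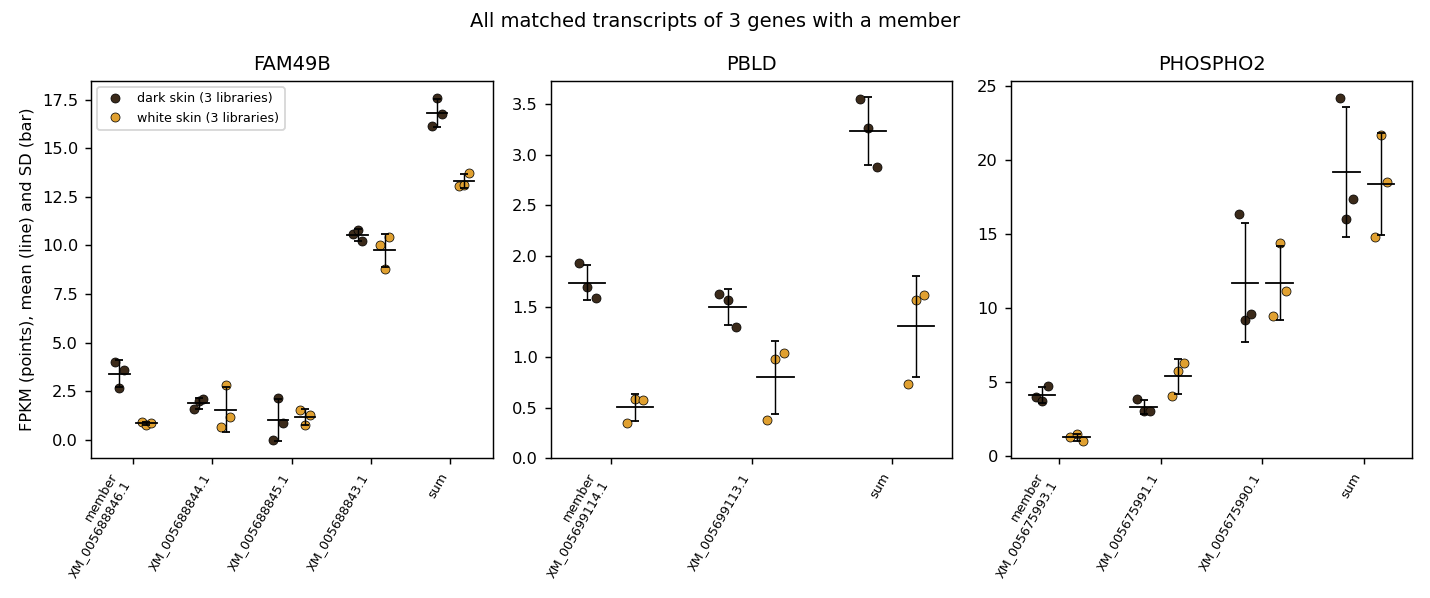
FPKM of each matched transcript of FAM49B, PBLD and PHOSPHO2 and of their sum, with dark points for the 3 dark skin libraries, light points for the 3 white skin libraries, lines for means and bars for SD. The transcript that met the rule is at the left of each panel. The sums differ by a ratio of means of 1.26 for FAM49B, 2.48 for PBLD and 1.05 for PHOSPHO2.

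When FPKM was summed over the matched transcripts of each gene, which leaves out the 14 transcripts without a symbol, 3 genes met the rule, FN1, HSPA6 and RGS1, and these 3 were genes with 1 matched transcript each. None of the 3 genes with several matched transcripts met the rule as a sum.

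The 14 transcripts without a symbol reached higher levels and larger ratios than the named ones in several cases. XM_005699255.1 had the highest mean in dark skin, with 12.6, 19.1 and 10.7 FPKM against 3.38, 3.79 and 4.08 FPKM in white skin. XM_005685749.1 was the most even across dark skin, with 13.4, 12.2 and 12.1 FPKM against 1.16, 1.98 and 0.885 FPKM, a ratio of means of 9.36. XM_005683471.1 had 8.40, 4.86 and 8.07 FPKM in dark skin and 0.390, 0.504 and 0.619 FPKM in white skin. The lowest dark skin value was 2.61, 6.11 and 7.86 times the highest white skin value in these 3 transcripts, in this order.

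XM_005683666.1 had the widest spread in dark skin, with 33.9, 1.39 and 5.01 FPKM in replicates 1, 2 and 3, a ratio of highest to lowest of 24.3. Its white skin values were 0.0768, 0.131 and 0.254 FPKM. DCT, which converts dopachrome during melanin synthesis, had 18.4, 4.31 and 4.70 FPKM in dark skin and 0.941, 1.18 and 1.14 FPKM in white skin. DCT is given here as the transcript left out of the set.

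A further pair of transcripts was close to 0 in white skin without being listed at 0 throughout. XM_005680255.1 had 2.03, 1.25 and 2.35 FPKM in dark skin and 0.00378, 0.0204 and 0.0134 FPKM in white skin. XM_005687217.1 had 1.19, 2.99 and 1.43 FPKM in dark skin and 0.000237, 0.00212 and 0.0706 FPKM in white skin. With FN1 and XM_005701294.1 they made up the 4 transcripts with no white skin library at 0.1 FPKM or above. Their lowest dark skin values were 61.3 and 16.8 times the highest white skin values.

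In XM_005680610.1 and XM_005678940.1 the white skin libraries differed strongly among themselves. XM_005680610.1 had 0.415, 1.61 and 0.00990 FPKM in white skin and 7.47, 3.77 and 6.85 FPKM in dark skin. XM_005678940.1 had 1.34, 0.00454 and 0.0306 FPKM in white skin and 6.13, 2.97 and 4.61 FPKM in dark skin. The highest white skin value came from replicate 5 in the first and from replicate 4 in the second, and dark skin replicate 2 was the lowest dark library in both. XM_005688183.1 was listed at 0 in white skin replicate 4 alone, with 0.180 and 0.356 FPKM in replicates 5 and 6 and 1.26, 1.91 and 1.40 FPKM in dark skin.

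XM_005696003.1 rested on an uneven dark skin group, with 1.24, 1.13 and 7.52 FPKM against 0.208, 0.529 and 0.343 FPKM in white skin. Its means were 3.30 ± 3.66 (SD, n = 3) and 0.360 ± 0.161 (SD, n = 3) FPKM, so the SD in dark skin exceeded the mean. XM_005678795.1 had the smallest ratio of means, 2.70, with 4.35, 3.95 and 3.62 FPKM in dark skin and 1.57, 1.49 and 1.36 FPKM in white skin. Both groups of that transcript were even. XM_005681860.1 had 2.24 to 2.71 FPKM in dark skin and 0.289 to 1.002 FPKM in white skin. XM_005700899.1 had 2.82 to 4.61 FPKM in dark skin and 0.894 to 1.32 FPKM in white skin.

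The rule requires every dark skin library to be high, but leaves their order free. The highest value lay in dark skin replicate 1 for 10 transcripts, in replicate 2 for 5 and in replicate 3 for 5. The lowest lay in replicate 1 for 3, in replicate 2 for 10 and in replicate 3 for 7. The ratio of the highest to the lowest dark skin library was at least 2 in 6 of the 20 transcripts, against 7.87% of the transcripts with at least 1 FPKM in every dark skin library. Its median was 1.76, against 1.26 over those transcripts, which are of higher level on the whole.

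The lowest dark skin value was 2 to under 3 times the highest white skin value in 12 transcripts, 3 to under 10 times in 4, and at least 10 times, or set against 0, in the other 4. For the 18 transcripts with a white skin mean above 0, the ratio of means ranged from 2.70 to 150 with a median of 6.93. On the log2(FPKM + 0.1) scale the fitted differences of these 18 had standard errors between 0.18 and 1.07. The difference was 2.13 for RGS1 (standard error 0.44), 2.096 for HSPA6 (0.46), 1.89 for FAM49B (0.24), 1.64 for PHOSPHO2 (0.22) and 1.63 for PBLD (0.29). Adding 0.1 shrinks the differences of the least abundant transcripts. The median difference over all 23090 transcripts fitted was -0.01.

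Just inside the factor of 2 were XM_005700899.1, XM_005696003.1 and HSPA6, at 2.13, 2.13 and 2.22 times the highest white skin value. Just outside were XM_005695874.1 at 1.9996, ARRDC3 at 1.92 and XM_005700500.1 at 1.87. XM_005695874.1 had 5.45, 4.67 and 10.9 FPKM in dark skin and was listed at 0 in white skin replicates 4 and 5, with 2.34 FPKM in replicate 6. ARRDC3 encodes an arrestin-domain protein that takes part in the trafficking of beta-adrenergic receptors. Its transcript (XM_005683433.1) was far more abundant than any of the 20, with 146, 160 and 132 FPKM in dark skin and 53.2, 68.6 and 53.0 FPKM in white skin. Below the minimum of 1 FPKM, 76 further transcripts met the factor.

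The size of the set followed the thresholds. With a factor of 1.5 in place of 2 the rule gave 51 transcripts, and with a factor of 3 it gave 8. With 1 FPKM added to every value before the ratio it gave 7. Scaling had little effect: 19 of the 20 met the rule under each of 3 other scalings. The exception was HSPA6. XM_005683471.1, XM_005685749.1, FN1 and XM_005701294.1 met the rule under each of 7 alternatives applied to single transcripts: a minimum of 2 FPKM, a factor of 3, 0.1 or 1 FPKM added, and the 3 scalings. Leaving out 1 library loosens the rule by construction, and the count was then 35 to 58. It was largest without dark skin replicate 3, with 58 transcripts, and lowest without dark skin replicate 2, with 35.

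**Figure D3:**
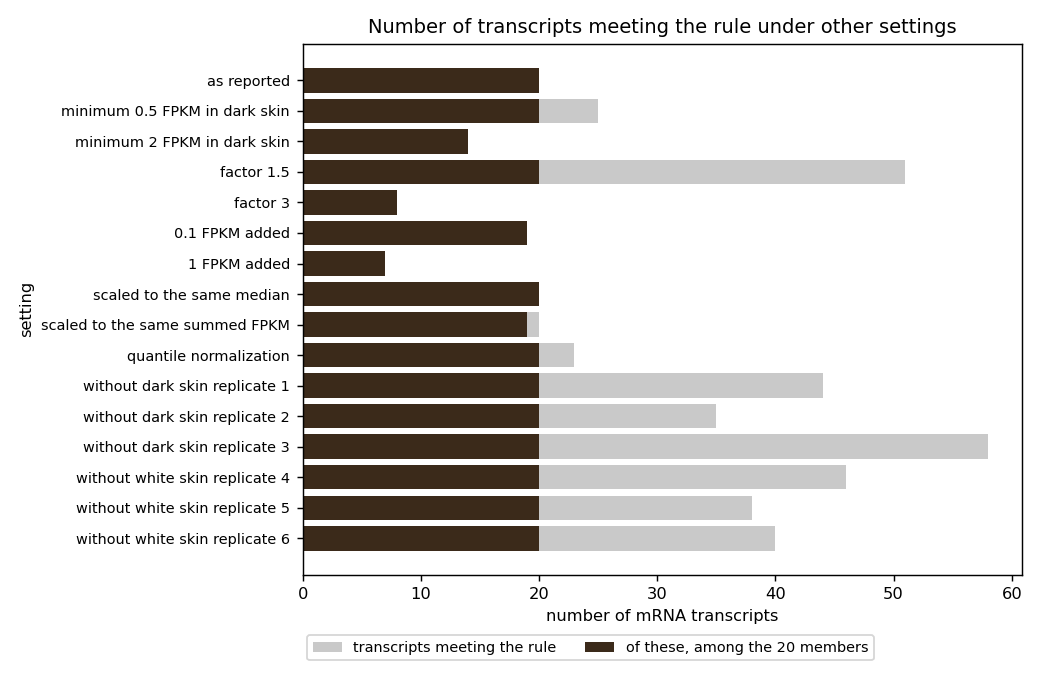
Number of mRNA transcripts meeting the rule under each setting (light bars) and how many of these were among the 20 (dark bars). The 3 scalings keep between 19 and 20 of them, the settings with a factor of 3, a minimum of 2 FPKM or 1 FPKM added keep 7 to 14, and the settings with 1 library left out raise the count to between 35 and 58.

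Neighbouring genes were read for the 6 named genes, as the 2 nearest protein-coding genes on each side in ARS1.2, used for gene order only. Of these 24 genes, 11 had a matched transcript, 20 transcripts in all, and 0 of the 20 met the rule. One transcript was higher in dark skin without overlap and 0 were lower, where 6.60% and 6.50% of all mRNA transcripts were. The count is thus not above the share over all transcripts. The transcript that was higher belonged to SSB, the La protein that binds the ends of small RNAs, located near PHOSPHO2. This SSB transcript (XM_005675985.1) had 2.634, 2.481 and 2.103 FPKM in dark skin and 1.11, 1.60 and 1.06 FPKM in white skin. The main SSB transcript (XM_005675984.1) had 42.3 to 54.2 FPKM in dark skin and 41.6 to 59.4 FPKM in white skin.

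Of the pigment cell list, 11 of 32 genes were matched, with 12 transcripts. Without overlap, 2 were higher in dark skin, DCT and SLC45A2, and 1 was lower, WNT2. The shares over all mRNA transcripts were 6.60% higher and 6.50% lower. DCT was already known to meet the rule. WNT2, a secreted Wnt ligand gene, had 3.27, 3.94 and 4.26 FPKM in dark skin and 10.4, 6.46 and 5.87 FPKM in white skin. SLC45A2, a melanosome membrane transporter, had 2.42, 2.66 and 5.92 FPKM in dark skin and 1.11, 2.17 and 2.08 FPKM in white skin. It lay below the factor of 2 in every comparison that sets dark skin replicate 1 or 2 against white skin replicate 5. The summed level of the list was 222 to 248 FPKM in dark skin and 152 to 225 FPKM in white skin, and the breeds overlapped. GPNMB held the largest part of this sum, with 137 to 143 FPKM in dark skin and 84.4 to 143 FPKM in white skin. TYR, TYRP1, PMEL and ASIP had no matched transcript, so the sum does not cover them. The paper marks ASIP and TYRP1 as differentially expressed.

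In a limma fit over all transcripts, 0 of the 104 transcripts tested on 13 lists of cell type and response genes had an adjusted p under 0.05. At an unadjusted p under 0.05 there were 7 higher and 15 lower in dark skin. Over all 23090 transcripts the fit called 1 higher (0.00433%) and 1 lower in dark skin, with 1035 and 878 at an unadjusted p under 0.05. The 1 called higher was one of the 20 transcripts, whose white skin values of 0 also chose it, so the call is no separate evidence. The count of higher calls was 0 without dark skin replicate 1 or 2 or white skin replicate 4 or 6, and 3 without white skin replicate 5.

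Between the breeds, 4 of the 13 lists had summed levels without overlap, all lower in dark skin and none higher. The erythroid list (6 of 15 genes matched) summed to 2.26 to 4.54 FPKM in dark skin and 7.79 to 15.9 FPKM in white skin. Most of this was ALAS2, with 1.56 to 3.82 FPKM in dark skin and 6.55 to 14.5 FPKM in white skin. Without ALAS2 the list summed to 0.539 to 0.948 against 1.05 to 1.45 FPKM, still without overlap but at a low level. The endothelial list (8 of 12) summed to 102 to 123 against 135 to 180 FPKM, and the fat cell list (2 of 12) to 4.51 to 12.2 against 15.2 to 79.0 FPKM. The fibroblast and matrix list (7 of 17), which holds FN1, summed to 2996 to 3584 FPKM in dark skin and 3683 to 3917 FPKM in white skin. The separation of the matrix sums rested on POSTN, which encodes the matrix protein periostin and held all 4 transcripts of the list that were lower in dark skin without overlap. POSTN summed to 799 to 1056 FPKM in dark skin and 1364 to 1671 FPKM in white skin, and without it the list overlapped, at 2196 to 2528 against 2011 to 2553 FPKM. The fat cell list also overlapped without ADIPOQ, the adiponectin gene, at 0.683 to 3.30 against 2.91 to 13.6 FPKM. Leaving out genes in turn was chosen after the data were seen. The part of the cell make-up of the samples in the 20 transcripts was not tested.

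The other lists overlapped between the breeds. The keratinocyte list (6 of 21 genes matched) summed to 594 to 1089 FPKM in dark skin and 676 to 900 FPKM in white skin, and the hair follicle list (3 of 18) to 28.1 to 149 against 35.6 to 120 FPKM. Skeletal muscle genes (4 of 21) summed to 579 FPKM in white skin replicate 4 and 199 FPKM in replicate 5, against 5.89 to 57.7 FPKM in the other 4 libraries. Nerve genes (5 of 12) summed to 104 to 147 against 129 to 154 FPKM. Antigen presentation and interferon genes (7 of 25) summed to 16.1 to 19.5 against 18.7 to 20.8 FPKM, and glutathione and xenobiotic genes (5 of 18) to 68.3 to 87.6 against 69.5 to 75.2 FPKM. Apart from FN1, 0 of the transcripts on the 13 lists were among the 20.

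**Figure D4:**
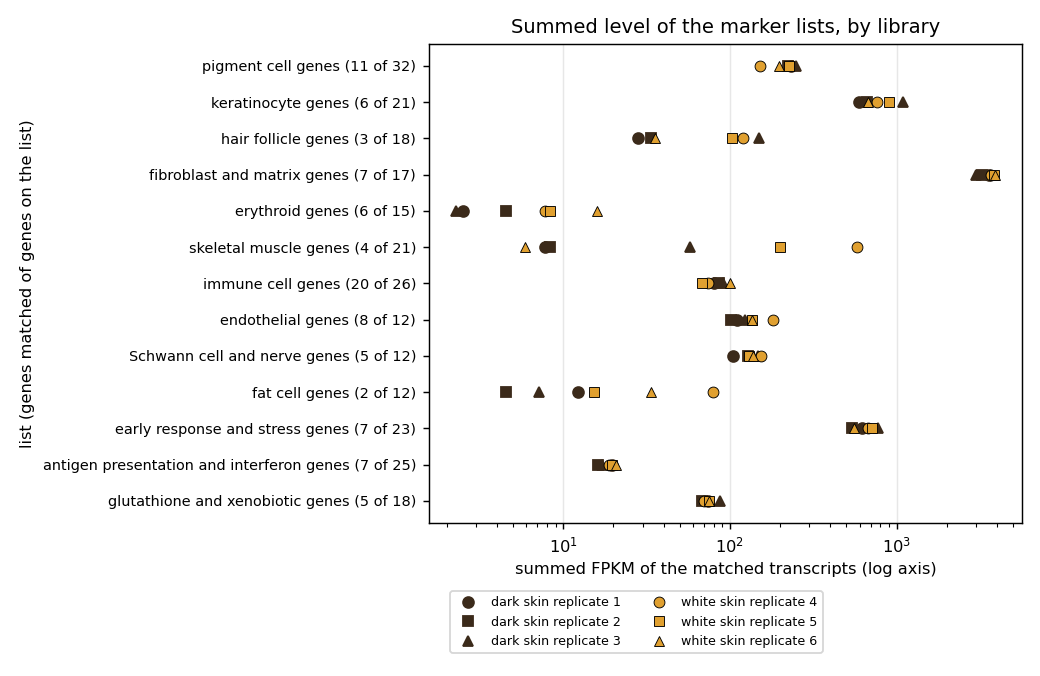
Summed FPKM of the matched transcripts of each list, on a log axis, with 1 point per library and the number of genes matched beside each name. The erythroid, endothelial, fat cell and matrix lists separate the breeds, with dark skin lower, the matrix list through POSTN and the fat cell list through ADIPOQ. The muscle list reaches 579 FPKM in white skin replicate 4.

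The same rule was applied to the 1336 lncRNA transcripts, which had no part in choosing the mRNAs. It was met by 4 (0.299%) in dark skin and by 5 (0.374%) in the opposite direction. All 4 were intergenic. TCONS_00134327, on chromosome 25, had 2.26, 1.84 and 1.12 FPKM in dark skin and 0.0423, 0.260 and 0.0934 FPKM in white skin, a ratio of means of 13.2. TCONS_00135366, also on chromosome 25, had 4.22, 5.62 and 3.98 FPKM in dark skin and 1.74, 1.51 and 1.63 FPKM in white skin. TCONS_00048133, on chromosome 14, had 3.21, 2.60 and 2.39 FPKM against 0.664, 1.17 and 1.09 FPKM. TCONS_00080636, on chromosome 18, had 1.16, 1.41 and 1.47 FPKM against 0.478, 0.364 and 0.262 FPKM. Their ratios of means, 2.80 to 13.2, lay within the range of the mRNAs. With a factor of 1.5 the rule was met by 8 lncRNAs, and with 1 library left out by 5 to 11, the latter without dark skin replicate 1 or 3.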

How the data were processed

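Total RNA of fetal skin was depleted of ribosomal RNA and sequenced from strand-specific libraries. The authors aligned the paired reads with TopHat 2.0.9 (Bowtie 2.0.6) to the goat genome of goat.kiz.ac.cn and calculated FPKM per library with Cuffdiff 2.1.1, and these deposited FPKM values were the starting point. The submitters' notes also list Cuffdiff 2.2.2. FPKM values carry no read counts, so no counting interval is given. Relative depth was read from the modal ratio of values under 0.08 FPKM between libraries.

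The 20 transcripts and the gene lists were chosen with earlier results of these data known. Symbols came from RefSeq accessions of the ARS1.2 gene table, matched without their version, for 9497 of 27947 mRNA transcripts, of which 230 had the same version. Every transcript of the set was described, named or not, with the 3 on each side of the factor. Genes of the lists were named where a count or a result turned on them, after their values were seen. Transcripts averaging at least 0.1 FPKM were fitted by limma 3.58.1 in R 4.3.3 on log2(FPKM + 0.1), with moderated variances that follow a trend, and Benjamini-Hochberg adjustment covered every fitted transcript. The fit was tested on simulated data. The rule was run on altered values in which the planted transcripts met it by construction, which checks the code only. The labels do not tie each library to an ewe, so p-values measure the spread between these libraries. The remaining values came from pandas 2.3.3 under Python 3.11.15. Promoter and protein sequences of these transcripts were not analysed here, nor were other groupings of the libraries.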

Additional observations from a re-analysis of the deposited data

How the results depend on the processing

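No paired analysis was possible, because the fetuses came from ewes of different breeds and the labels pair no dark skin library with a white skin library. The direction of the 20 transcripts was fixed by how they were chosen, so its being kept under other settings says nothing of stability. Of their fitted differences, 22 of 200 moved by more than the replicate spread, all with a pseudocount of 0.01 or 1. Leaving out 1 library cannot, by construction, move a difference by more than that spread, so those settings could not add to the 22. That spread is wide for some: XM_005683666.1 had a log2 difference of 4.71, and 3.50 to 5.76 with 1 library left out (lowest without dark skin replicate 1), and XM_005696003.1 had 2.40, and 1.54 to 2.85 (lowest without dark skin replicate 3). Their median, with the pair listed at 0 in white skin included at fitted values that depend on the pseudocount, was 2.58, 1.44 with a pseudocount of 1, and 2.15 to 2.84 with 1 library left out. The number of transcripts meeting the rule, 20, became 51 with a factor of 1.5, 8 with a factor of 3, 7 with 1 FPKM added, 3 genes with FPKM summed per gene (14 of the 20 have no symbol and could not enter, and of the 6 that did 3 met the rule), and 35 to 58 with 1 library left out. Limma's calls higher in dark skin, 1, became 2 with a pseudocount of 1, 12 without a filter, 0 with a mean of at least 1 FPKM, 12 without trend and 0 to 3 with 1 library left out. Calls lower in dark skin, 1, became 14 without a filter, 16 without trend and 1 to 4 with 1 library left out. Calls on the lists, 0, were 0 to 1 with 1 library left out, the 1 without dark skin replicate 3. The lncRNAs meeting the rule, 4, became 8 with a factor of 1.5 and 5 to 11 with 1 library left out. A looser or stricter factor, or fewer libraries, by construction sets how many transcripts can meet the rule. For the limma calls the cause was not tested. The unknown number of reads behind low values limits all statements on transcripts near 0.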
